A study of Rattus norvegicus with 17 samples.

Results

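The 4 classical glutathione peroxidases Gpx1, Gpx2, Gpx3 and Gpx4 and 6 genes known as targets of the transcription factor NRF2 (Gclc, Gclm, Txnrd1, Nqo1, Akr1b8 and Hmox1) were followed in rat colon mucosa. These 10 genes were chosen by name, as the gene probes whose array gene name matched a member. All 10 were found on the array, by 15 of its 41012 probes, and all 15 probes were bright enough to be tested, among 27083 tested probes of 23134 gene names.

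The series asks how dietary calcium affects colitis in a rat model. Every animal was a female HLA-B27/β2-microglobulin transgenic rat on an inbred Fisher 344 background, aged 8 to 10 weeks when the experiment began. Rats with these human transgenes develop colitis, and both diet groups carried them, so no rat without the transgenes is analysed here to give a healthy level. On low calcium, a feed with 30 mmol calcium per kg, were 9 rats (numbered 1, 4, 5, 6, 7, 8, 11, 15 and 16 in the labels). On high calcium, the same purified Western-type feed with 120 mmol calcium per kg, part of its glucose being replaced, were 8 rats (numbered 2, 3, 9, 10, 13, 14, 17 and 18). RNA came from scrapings of the mucosa, which can hold epithelium together with immune cells, stroma and some muscle, so fewer cells of a type and less RNA per cell cannot be told apart here. Each rat was hybridised in Cy5 to its own 2-colour array against a Cy3 pool of all animals. Each value below is therefore the log2 ratio of 1 rat to that pool, and ratios of different genes say nothing about which gene had more RNA. The dyes were never swapped, so an offset between dyes is shared by both diets, and their difference, given as high minus low calcium, does not carry it. Median Cy5 signals of the arrays were 147 to 181, their median backgrounds 43.5 to 53.5, and 60.6% to 72.5% of probes lay well above background. The 12 colon epithelium markers, Epcam, Cdh1, Muc2 and Car1 among them, were all measured above the filter for dim probes.

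Glutathione peroxidases reduce peroxides with glutathione as the electron donor. Gpx1 works in the cytosol of most cells, Gpx2 is the form of the gastrointestinal epithelium, Gpx3 is secreted, and Gpx4 acts on lipid hydroperoxides within membranes; these peroxidases and Txnrd1 carry selenocysteine. NRF2 is held by KEAP1 and degraded in unstressed cells. Oxidants and electrophiles release it, and together with small MAF proteins it binds the antioxidant response element near genes for glutathione synthesis, thioredoxin reduction, quinone and aldehyde reduction and haem breakdown. In the gut these enzymes meet oxidants from neutrophils and macrophages as well as reactive compounds from food and bacteria.

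The letters TGACNNNGC, the core of the antioxidant response element, were searched on both strands of RefSeq promoter windows (build GRCr8), each from 250 bases before a gene's start to 50 after it. Gpx2, Gclm and Txnrd1 held a match, 3 of the 9 members with an entry (12 entries in all), beside 4038 of 33469 promoters of the same length (12.1%). A member was counted if any of its entries matched, whereas the promoters were counted singly. Hmox1 had no entry. Bases farther from a start were not searched, so a member without a match here may hold one outside the window. The stretches around these 3 matches are shown because NRF2 is known to bind such letters. They are written 5′ to 3′ on the gene's own strand, all of them upstream of the start, and capitals mark the match, which in each case reads as the reverse complement GCNNNGTCA. The Gpx2 stretch is chr6:101230034-101230091 on the minus strand, with the match 13 to 5 bases before the start. Gclm is shown at chr2:213031918-213032016 on the plus strand, with the match 172 to 164 bases before the start. For Txnrd1, 1 of 2 listed promoters matched, at chr7:22755929-22756027 on the minus strand, 78 to 70 bases before the start.
Gpx2: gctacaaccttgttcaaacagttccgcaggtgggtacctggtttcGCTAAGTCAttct
Gclm: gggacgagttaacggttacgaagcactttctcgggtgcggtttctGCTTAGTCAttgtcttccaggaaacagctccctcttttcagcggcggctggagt
Txnrd1: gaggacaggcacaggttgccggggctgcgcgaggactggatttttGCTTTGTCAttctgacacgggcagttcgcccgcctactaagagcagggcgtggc
A match of letters is a description and not a measured binding site. Of these 3, Gpx2 and Txnrd1 had lower and Gclm had higher means at high calcium, and no one of the 3 passed the test.

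Across the 10 genes, 3 had a higher and 7 a lower mean in the high calcium rats. In a limma fit over all 27083 tested probes, 0 of 10 members had a Benjamini-Hochberg adjusted p under 0.05, as was the case for 0% of all probes. At an unadjusted p under 0.05, 4 of 10 members (Gpx1, Gpx3, Nqo1 and Akr1b8) differed, all lower at high calcium, against 8.79% of all probes in either direction and 4.84% in that direction. No member was higher at an unadjusted p under 0.05, where 3.95% of all probes were. The median of the members' differences was -0.13, beside 0.0068 over all probes, of which 53.9% had a difference above 0. These genes were gathered with earlier results on the same arrays known, so the counts describe them and test nothing about them as a set.

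**Figure D1:**
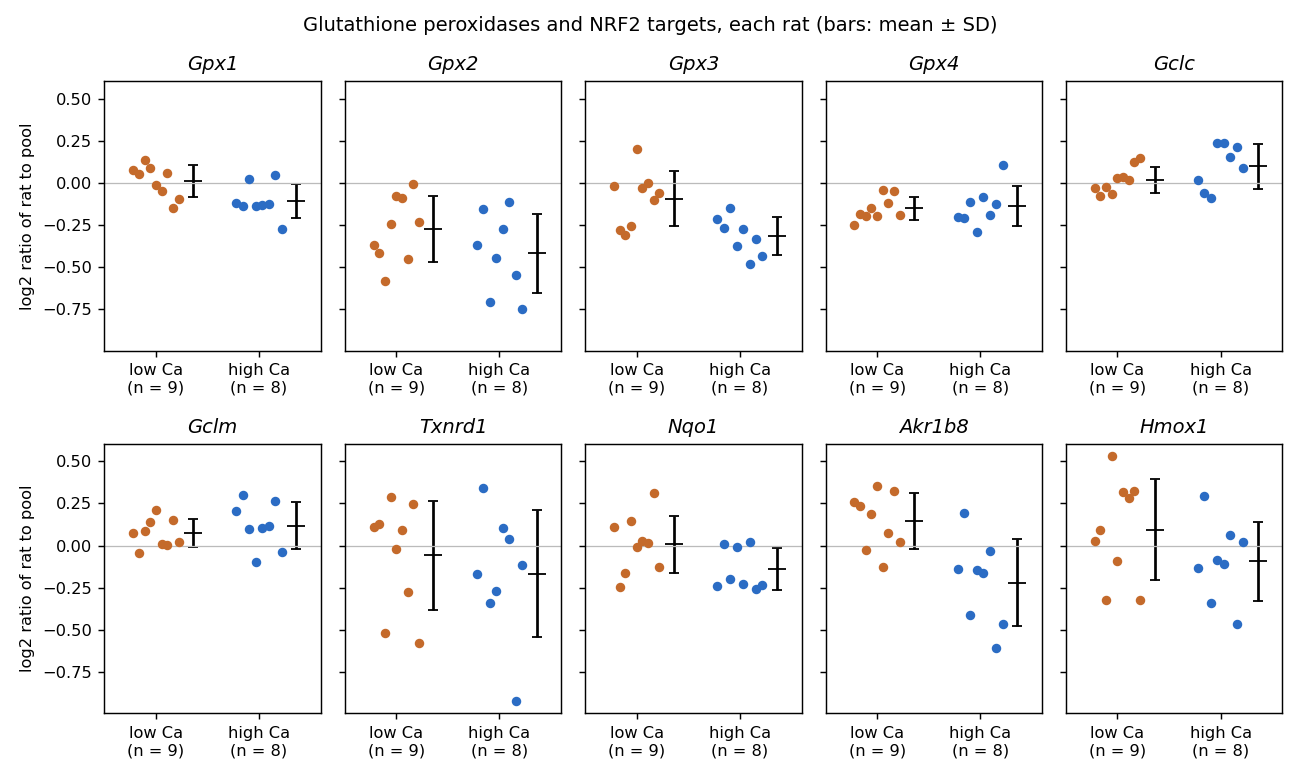
Log2 ratio of each rat to the pool (vertical axis) for each of the 10 genes, by diet; each point is 1 rat, and the bars are the mean and SD of 9 low calcium and 8 high calcium rats. In Gpx3 all 8 high calcium rats lie below the low calcium mean, in Akr1b8 7 of 8 do, and in every panel the diets overlap.

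Gpx1, the general cytosolic peroxidase, ran from -0.27 to 0.05 (median -0.13) in the high calcium rats and from -0.15 to 0.13 (median 0.05) in the low calcium rats. All 8 high calcium rats lay below the low calcium median, yet the ranges overlapped. The lowest low calcium rats, 15 and 16, were at -0.15 and -0.10. At high calcium the highest rats, 17 and 9, were at 0.05 and 0.02. The difference was -0.12 ± 0.05 (SE; 8 and 9 rats), 1.09-fold lower, with an unadjusted p of 0.0273 and an adjusted p of 0.499 in limma. The other Gpx1 probe differed by -0.12 ± 0.06, and both probes varied together over the rats (r = 0.757). On the 4 slides that held 2 rats of each diet the Gpx1 difference was -0.10, -0.17, -0.10 and -0.07, the same direction on each.

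Gpx2, the epithelial form, ran from -0.75 to -0.11 (median -0.41) at high calcium and from -0.58 to -0.01 (median -0.25) at low calcium. All log ratios for this probe were negative, a level that can carry an offset between dyes, and the diets overlapped over most of their range. The difference was -0.14 ± 0.09, with an adjusted p of 0.705 in limma. Its dimmer second probe, made from an expressed sequence tag, had the opposite sign (0.06 ± 0.08) and followed the first only weakly over the rats (r = 0.251), so the direction for Gpx2 rests on which probe is read. The slides gave 0.06, -0.16, -0.11 and -0.42.

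Gpx3, the secreted peroxidase, ran from -0.48 to -0.15 (median -0.30) at high calcium and from -0.31 to 0.20 (median -0.06) at low calcium. All 8 high calcium rats lay below the low calcium mean, 4 of them below every low calcium rat, and 6 low calcium rats lay above every high calcium rat. The difference was -0.22 ± 0.07, or 1.16-fold lower, with an unadjusted p of 0.0028 and an adjusted p of 0.264 in limma. Gpx3 was a dim probe, with Cy5 signals of 113 to 204, although it was well above background on all 17 arrays. Its size depended on how background was treated: the difference was -0.38 ± 0.11 with a normexp offset of 0 and -0.54 ± 0.12 from the signals as processed by the scanner software, while the adjusted p under these was 0.276 and 0.137 in limma. The slides did not agree in size, at -0.07, 0.02, -0.46 and -0.33.

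Gpx4, the enzyme for lipid hydroperoxides and a guard against ferroptosis, ran from -0.29 to 0.11 (median -0.16) at high calcium and from -0.25 to -0.04 (median -0.19) at low calcium. The groups overlapped almost entirely, with 4 of 8 high calcium rats above the low calcium mean. The difference of 0.01 ± 0.05 (adjusted p = 0.962 in limma) was smaller than its error and had no settled sign. It was -0.01 with array weights and -0.02 without rat 18, the only rat with a positive log ratio.

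Both subunits of glutamate-cysteine ligase, which makes the first step of glutathione synthesis, had a higher mean at high calcium, which of the other 8 members was so for Gpx4 alone. Gclc, the catalytic subunit, ran from -0.09 to 0.24 (median 0.12) at high and from -0.08 to 0.15 (median 0.01) at low calcium. Of the high calcium rats 4 lay above every low calcium rat, and the lowest of all 17 was also a high calcium rat. Its difference was 0.08 ± 0.05 (adjusted p = 0.704 in limma), and the slides gave -0.06, 0.12, 0.16 and 0.08. Gclm, the modifier subunit, ran from -0.10 to 0.30 (median 0.11) at high and from -0.05 to 0.21 (median 0.08) at low calcium. The low calcium rats all lay within the range of the high calcium rats. Its difference was 0.05 ± 0.05 (adjusted p = 0.861 in limma). Gclm was the dimmest member: its Cy5 signal of 80.4 to 178 was well above background on 8 arrays only, of 2 high and 6 low calcium rats, the smallest number that the filter let through. Its sign was not settled, being -0.13 with median centring, -0.16 from Cy5 alone and -0.53 with the processed signals.

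Txnrd1, which reduces thioredoxin with NADPH, varied most between rats of 1 diet. It ran from -0.92 to 0.34 (median -0.14) at high and from -0.58 to 0.29 (median 0.09) at low calcium. The highest and the lowest of all 17 rats were both on high calcium, rats 3 and 17. The residual SD of 0.349 within diets was larger than that of 98.9% of all tested probes (median 0.117), and the difference of -0.11 ± 0.15 lay well within it (adjusted p = 0.882 in limma). Without rat 17 the Txnrd1 difference was 0.00045. The other 3 Txnrd1 probes differed by 0.04, -0.04 and -0.06, with correlations between probes of 0.644 to 0.946 over the rats, so the spread between rats was seen by all 4 probes while the sign of the diet difference was not the same in all.

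Nqo1, the quinone reductase often read as an NRF2 indicator, ran from -0.26 to 0.02 (median -0.21) at high and from -0.25 to 0.31 (median 0.02) at low calcium. Of the 8 high calcium rats 7 lay below the low calcium median, and 4 low calcium rats lay above every high calcium rat. The difference was -0.15 ± 0.07, 1.11-fold lower, with an unadjusted p of 0.0426 and an adjusted p of 0.549 in limma. With the slide as a block it was -0.14 ± 0.07 with an unadjusted p of 0.0856, and within slides 0.07, -0.09, -0.11 and -0.41.

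Akr1b8, an aldo-keto reductase of rodents that reduces aldehydes, had the largest difference of the 10. It ran from -0.61 to 0.19 (median -0.15) at high and from -0.13 to 0.35 (median 0.19) at low calcium. All but 1 of the high calcium rats lay below the low calcium mean, 6 of them below every low calcium rat, and the exception was rat 3 at 0.19. The means were -0.22 ± 0.26 (SD, n = 8) and 0.14 ± 0.17 (SD, n = 9). The difference was -0.37 ± 0.09 (SE), or 1.29-fold lower, with an unadjusted p of 7.5e-04 and an adjusted p of 0.187 in limma. Without rat 3 the Akr1b8 difference was -0.43 ± 0.08 and passed, with an adjusted p of 0.0235 in limma. In that fit 193 of 27083 probes passed, against 0 with all rats, so passing there was not particular to Akr1b8. With any other rat left out, or any of the other settings, Akr1b8 did not pass. All 4 slides had the same direction, at -0.10, -0.36, -0.21 and -0.74. Median centring in place of loess kept the size (-0.33) but raised the SE to 0.28, for an unadjusted p of 0.260.

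Hmox1, the inducible enzyme that breaks haem down to biliverdin, iron and carbon monoxide, ran from -0.47 to 0.29 (median -0.10) at high and from -0.33 to 0.53 (median 0.09) at low calcium. Of the high calcium rats 7 lay below the low calcium mean, but 3 low calcium rats, numbers 5, 7 and 16, had negative log ratios. The difference was -0.19 ± 0.12, 1.14-fold lower, with an adjusted p of 0.695 in limma. Hmox1 was printed on 10 spots of each array, and their SD within an array was 0.021 to 0.057 (median 0.036), against a residual SD of 0.272 between rats of 1 diet, larger than that of 97.0% of probes. The spread of Hmox1 therefore lay mostly between arrays, 1 per rat, and not between spots. On slides it was 0.20, -0.32, -0.14 and -0.52.

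**Figure D2:**
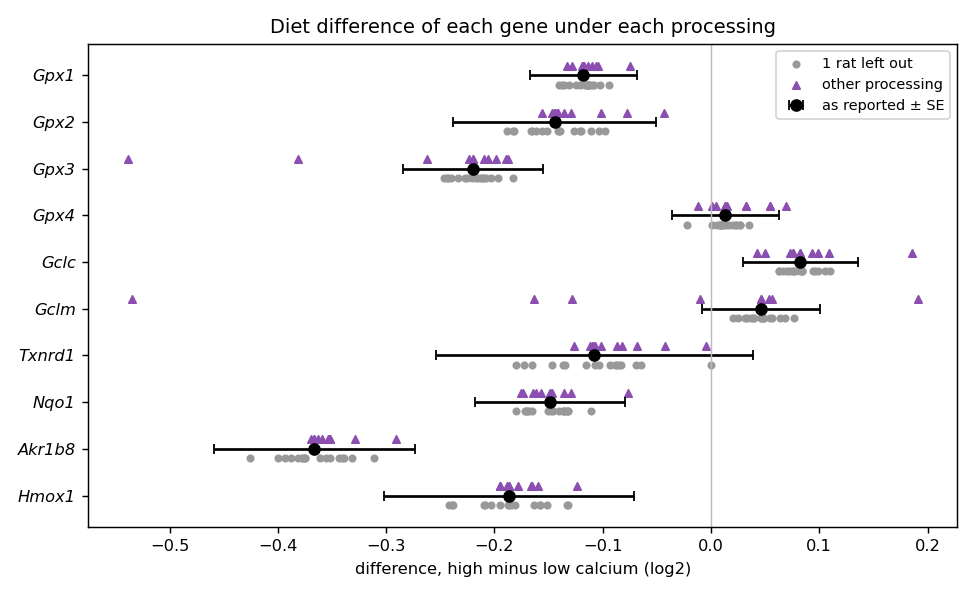
Difference between diets (horizontal axis, high minus low calcium, log2) for each gene: black points with SE bars are the reported values, grey points leave out 1 rat, purple triangles use another processing. Akr1b8 stays between -0.43 and -0.29 and Gpx3 lies below 0 throughout, reaching -0.54, whereas Gpx4, Gclm and Txnrd1 have values on both sides of 0.

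Beyond diet, the genes differed in how they varied from rat to rat. Txnrd1, Hmox1, Gpx2 and Akr1b8 had residual SDs larger than those of 93% or more of all probes, whereas those of Gpx1, Gpx4, Gclc and Gclm were smaller than the median over all probes. The log ratios of the 17 rats were compared for all 45 pairs of members after the mean of each diet had been subtracted, with permutations of rats within diets. All genes of a rat share 1 array and 1 normalisation. Of the 45 correlations 25 were positive, with a median r of 0.074.

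Of the pairs, 1 passed after adjustment over the 45. Txnrd1 and Hmox1 varied together, with Pearson r = 0.818 (permutation p = 0.00016, adjusted p = 0.0072) and Spearman rho = 0.745 (permutation p = 0.0012, adjusted p = 0.0495). The relation held within both diets (r = 0.894 over the high and 0.784 over the low calcium rats), with slide means removed (0.893), and without rats 16 and 17, the 2 farthest from the median of Txnrd1 (0.738). All 17 fits with 1 rat left out kept the adjusted permutation p between 0.00045 and 0.0324. Each of the 4 Txnrd1 probes followed Hmox1, with r of 0.746 to 0.865. Rat 17 was the lowest of all 17 in both genes (-0.92 and -0.47), rats 3 and 6 were high in both, and rats 5 and 16, on low calcium, were low in both. Rat 11, on low calcium, departed from this, with Txnrd1 at -0.28 and Hmox1 at 0.28, and without it r was 0.879.

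Akr1b8, Nqo1 and Gpx2 leaned the same way without passing on Pearson r. Txnrd1 and Akr1b8 had r = 0.714 (permutation p = 0.0022, adjusted p = 0.0506; rho = 0.603; 0.600 without rats 16 and 17; 0.691 with slide means removed). For Nqo1 and Hmox1 r was 0.642 (adjusted permutation p = 0.129) and rho 0.728 (adjusted permutation p = 0.0495), with r = 0.601 without the 2 rats farthest in Nqo1. The pairs Gpx2 with Akr1b8 (r = 0.633), Gpx2 with Nqo1 (0.588), Gpx2 with Txnrd1 (0.544), Nqo1 with Txnrd1 (0.539) and Nqo1 with Akr1b8 (0.524) all had r above 0.5, and all had an adjusted permutation p over 0.05. With slide means subtracted as a block, Gpx2 with Nqo1 was the strongest pair of all (r = 0.933, adjusted permutation p = 0.00045). Its unadjusted permutation p of 1e-05 was the smallest that the permutations can give. Rats were permuted within diets and not within slides, so permutation p values under the block do not allow for the slide means removed. Of the other pairs named here, Nqo1 with Akr1b8 (adjusted permutation p = 0.0154), Nqo1 with Hmox1 (0.0294), Gpx2 with Akr1b8 (0.0328) and Txnrd1 with Akr1b8 (0.0328) also passed under the block, and Txnrd1 with Nqo1 (0.0564) and Gpx2 with Txnrd1 (0.271) did not. Gpx1 stood on the other side, with r of -0.44 to Gpx2 and -0.38 to Txnrd1, neither of which passed. Gclc, Gclm, Gpx3 and Gpx4 had no pair that passed, and the lowest r of all was -0.47, between Gpx4 and Akr1b8.

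The number of pairs that passed moved with the scaling. With slide means subtracted 6 pairs passed, with the deposited series matrix 3, and with median centring in place of loess 29, where the median residual SD over all probes was 0.272 in place of 0.117. Txnrd1 with Hmox1 passed under each of these 3.

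**Figure D3:**
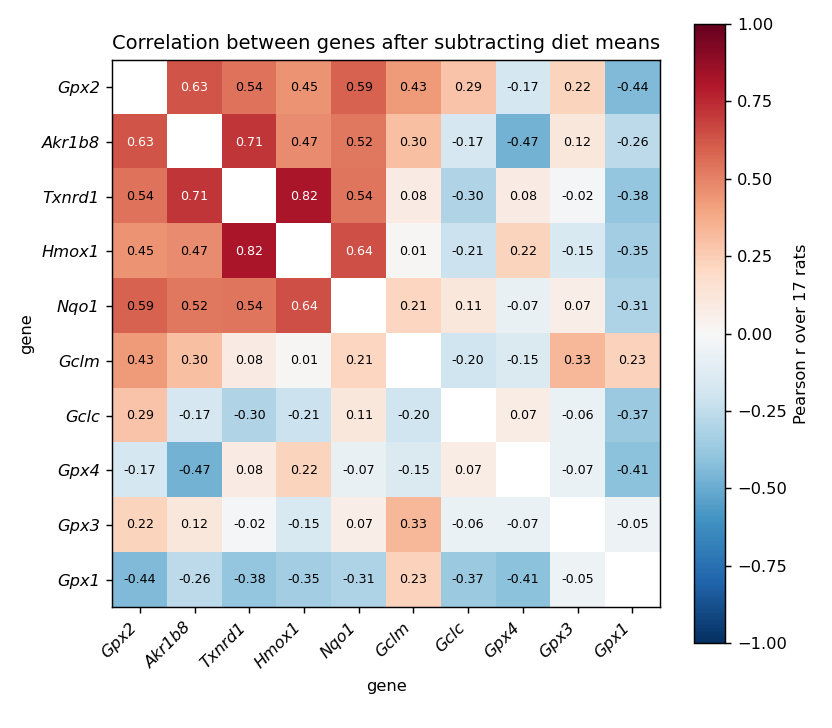
Pearson r over 17 rats, after subtracting diet means, for each pair of the 10 genes on both axes (red positive, blue negative, scale from -1 to 1). Gpx2, Akr1b8, Txnrd1, Hmox1 and Nqo1 form a block of positive values topped by Txnrd1 with Hmox1 at 0.82, and the row of Gpx1 is mostly blue.

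The same 5 genes moved with the neutrophil markers from rat to rat. This relation was looked for after the values had been seen, in 60 comparisons (10 members with the mean of each of 6 lists of cell type markers, diet means subtracted), and 6 passed after adjustment over the 60. Of the 10 neutrophil markers, 8 passed the filter for dim probes, and Mpo and Ltf, which mark neutrophil granules, did not. The mean of those 8 ran from -0.49 to 0.22 (median -0.15) over the high and from -0.22 to 0.41 (median 0.11) over the low calcium rats. All 8 were lower at high calcium, 5 at an unadjusted p under 0.05 and 0 after adjustment in limma, with a median difference of -0.26. Of the macrophage markers 8 of 9 were lower (median -0.13), 4 of them at an unadjusted p under 0.05. Fibroblast markers were lower in 9 of 9, 8 of them at an unadjusted p under 0.05, with the lowest median of the 6 lists (-0.49). Over all probes 4.84% were lower at an unadjusted p under 0.05 in limma. Epithelial markers had higher means in 9 of 12 (median 0.10), where 53.9% of all probes had a difference above 0. Of these 9, 1 was at an unadjusted p under 0.05 in limma, where 3.95% of all probes were higher. The list mean ran from -0.52 to -0.03 at high and from -0.19 to 0.22 at low calcium for macrophage markers, and from -0.81 to 0.24 and from -0.13 to 0.55 for fibroblast markers. For epithelial markers it ran from -0.14 to 0.33 and from -0.31 to 0.16. Their part in the diet differences of the 10 genes was not tested.

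Hmox1 had the closest relation to the neutrophil mean, with r = 0.803 (permutation p = 0.00024, adjusted p = 0.0144) and rho = 0.784. For Hmox1 r was 0.654 within high and 0.939 within low calcium, 0.841 with slide means removed and 0.747 without the 2 rats farthest in Hmox1. Txnrd1 followed with r = 0.757 (permutation p = 0.001, adjusted p = 0.0222; rho = 0.725; 0.736 without 2 rats; 0.755 with slide means removed). Nqo1 had r = 0.731 (permutation p = 0.0011, adjusted p = 0.0222; rho = 0.804; 0.693 without 2 rats; 0.826 with slide means removed).

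Akr1b8 had r = 0.700 (permutation p = 0.0033, adjusted p = 0.0391; rho = 0.556; 0.608 without 2 rats; 0.709 with slide means removed). Gpx2 had r = 0.675 (permutation p = 0.0048, adjusted p = 0.0481; rho = 0.676; 0.548 without 2 rats; 0.789 with slide means removed). Correlations of Gpx2, here and among the pairs, were read from its brightest probe. The second Gpx2 probe followed that one only weakly (r = 0.251). Within high and low calcium r was 0.937 and 0.361 for Akr1b8 and 0.898 and 0.410 for Gpx2, differences between diets that were not tested. By Spearman's rho, Hmox1, Nqo1 and Txnrd1 passed and Akr1b8 and Gpx2 did not. With 1 rat left out at a time, the call was kept in 16 of 17 fits for Hmox1, 15 for Txnrd1, 15 for Nqo1, 7 for Akr1b8 and 3 for Gpx2, so those of Akr1b8 and Gpx2 were lost without most single rats. Without rat 3 the r values were 0.761 for Hmox1, 0.712 for Nqo1, 0.701 for Txnrd1, 0.621 for Gpx2 and 0.591 for Akr1b8, and 0 of 60 passed, the 3 smallest adjusted permutation p being 0.0692. Without rat 15, Hmox1 alone passed.

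Single neutrophil markers did not all relate to Hmox1 alike. S100a9 and S100a8, the subunits of calprotectin, had r of 0.879 and 0.835 with it, and the integrin Itgam had 0.742, whereas the cytokine receptor Csf3r had 0.37 and the collagenase Mmp8 had 0.40. One rat departed from the line: rat 18 had the lowest neutrophil mean of all (-0.49) with Hmox1 at 0.02, and without it r for Hmox1 was 0.953. Gclc was the member of the remaining relation that passed, with the smooth muscle markers (r = -0.743, permutation p = 0.002, adjusted p = 0.0297; rho = -0.681; -0.696 without 2 rats). By Spearman's rho it did not pass (adjusted permutation p = 0.115), nor with series matrix values (r = -0.419, adjusted permutation p = 0.572), and with median centring in place of loess its sign turned (r = 0.691). With the smooth muscle mean as a covariate the diet difference of Gclc was 0.05 ± 0.04, in place of 0.08 ± 0.05.

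**Figure D4:**
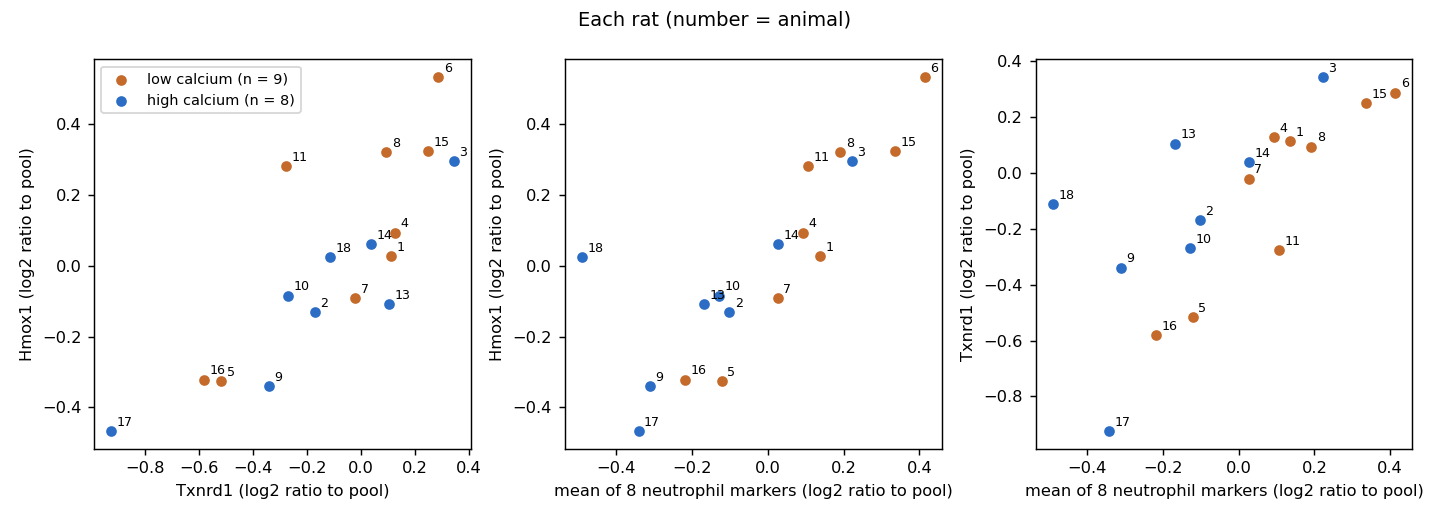
Each point is 1 rat, numbered, with log2 ratios to the pool on both axes: Hmox1 against Txnrd1 (left), and Hmox1 (middle) and Txnrd1 (right) against the mean of 8 neutrophil markers. Rat 17 sits lowest in Hmox1 and Txnrd1, rat 6 highest in Hmox1, and rat 18 lies off the line in the middle panel, with a neutrophil mean of -0.49.

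The genes most like each member over the 17 rats were sought among 11502 named genes, again with diet means subtracted, and are given as a description. Nearest to Txnrd1 were Alpl, an alkaline phosphatase (r = 0.951), and Fabp4, a fatty acid binding protein (0.927). Hmox1 came nearest to Sfnl1 (0.937) and Ero1a, an oxidase of protein folding (0.933). For Akr1b8 they were Gca (0.889), Il2ra (0.875) and Myo9a (0.850), and for Gpx2 they were Pomp, a proteasome assembly factor (0.853), Pgk1, a glycolytic enzyme (0.824), and Plet1 (0.818). The remaining members had as their nearest Lrrc4b for Gpx3 (0.878), Pigo for Gpx4 (0.838), Matr3 for Gpx1 (0.832), Pheta1 for Gclc (0.815), Sema3f for Nqo1 (0.791) and Or1af1 for Gclm (0.760). None of the 10 had another member among its 3 nearest genes.

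Around the 10 genes, the rest of their pathways was read from lists chosen by function, and no gene of any list passed after adjustment in limma. The 10 genes for NRF2 and its regulators had 3 higher and 7 lower means with a median of -0.01. Nfe2l2, which encodes NRF2, differed by 0.01 ± 0.06 and Keap1 by -0.02 ± 0.06. The smallest p values of that list belonged to the small MAF genes Mafk (0.13 ± 0.06) and Maff (-0.10 ± 0.06) and to Cul3 (-0.07 ± 0.04), part of the ligase that degrades NRF2. Other NRF2 targets, 14 genes, were evenly split at 7 and 7. The 2 at an unadjusted p under 0.05 in limma were both higher at high calcium, where 3.95% of all probes were. They were the exporter Abcc3 (0.20 ± 0.08) and the carbonyl reductase Cbr1 (0.24 ± 0.11). Akr1b8 and Nqo1, at -0.37 and -0.15, thus had the opposite sign from Abcc3 and Cbr1, and none of these 4 passed after adjustment.

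Of the other glutathione peroxidases, Gpx6, Gpx7 and Gpx8 could be tested, at 0.02, -0.08 and -0.26 ± 0.09 (unadjusted p = 0.012 in limma for Gpx8, an enzyme of the endoplasmic reticulum). In glutathione synthesis and recycling, 7 of 9 genes had lower means (median -0.07). The largest of these differences were those of Ggt1 (-0.40 ± 0.11, unadjusted p = 0.0023) and Anpep (-0.22 ± 0.07, unadjusted p = 0.0061 in limma), peptidases that take glutathione apart outside the cell. Glutathione reductase, Gsr, differed by -0.07 ± 0.04.

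The thioredoxin and peroxiredoxin list, which Txnrd1 serves, was split 5 higher and 6 lower (median -0.01), with Prdx1 at -0.13 ± 0.05, Prdx5 at -0.21 ± 0.09 and Txnip, an inhibitor of thioredoxin, at 0.14 ± 0.07. Of superoxide dismutases and catalase 3 of 4 were lower (median -0.11), with Sod2 at -0.27 ± 0.10, Sod3 at -0.21 ± 0.10 and Cat at 0.04 ± 0.06. In the 5 genes of NADPH supply the median was 0.03, with Taldo1, a transaldolase, at 0.09 ± 0.06 and Idh1, a cytosolic isocitrate dehydrogenase, at 0.03 ± 0.05.

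Haem and iron handling, the pathway of Hmox1, had 6 of 10 lower means and a median of -0.05. Slc11a1, a metal transporter of phagosomes, differed by -0.45 ± 0.12 (unadjusted p = 0.0011), haptoglobin, Hp, by -0.50 ± 0.21, and Blvrb, which reduces biliverdins, by -0.18 ± 0.05 (unadjusted p = 0.0021 in limma), while the constitutive Hmox2 was at -0.03 ± 0.04. The other selenoproteins and selenium-handling genes, 9 tested, were 5 higher and 4 lower with a median of 0.004. Selenow (-0.13 ± 0.05) and Selenof (-0.15 ± 0.06) were lower and Lrp8, a receptor for selenoprotein P, was higher (0.11 ± 0.05).

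**Figure D5:**
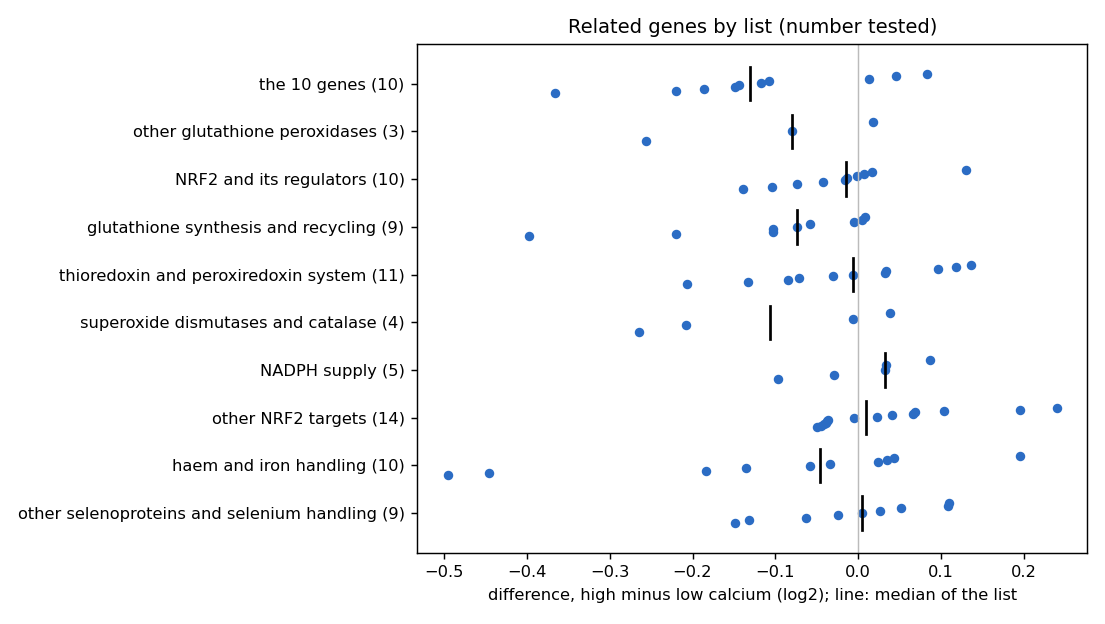
Difference between diets (horizontal axis, high minus low calcium, log2) for each tested gene of the 10 members and of 9 related lists; points are genes, and the black line is the median of the list. The median of the members lies at -0.13, that of superoxide dismutases and catalase at -0.11, and those of NRF2 and its regulators and of other NRF2 targets at -0.01 and 0.01.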

How the data were processed

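Each of 17 rats had 1 array, and rats were taken as separate animals from the labels, which also gave the diets. The deposited scanner files hold spot intensities of both dyes, which per the file headers come from Agilent Feature Extraction 9.5.1.1 (9.5 in the submitters' processing notes). The deposited series matrix holds log2 values whose making the sources used here do not give; gene by gene it followed the scanner log ratio (r = 0.981), 0 of its columns were unused, and it served as an alternative only. Normexp (offset 50) served for background and loess for each array, in limma 3.58.1 under R 4.3.3. Spots of a probe were averaged, and a probe was tested if its Cy5 signal was well above background on 8 or more arrays. A gene was read from its brightest probe. Diets were compared with lmFit and eBayes, two-sided, p-values being adjusted over all probes (Benjamini-Hochberg, threshold 0.05); the fit was tested on simulated data. Correlations used 100000 permutations of rats within diets, so the smallest p they can give is 1e-05. The members and lists were chosen with earlier results of these data known. All members were named; in each list the 3 genes with the smallest p, and for each member up to 3 genes most like it; Nfe2l2, Keap1 and Hmox2 were added after their values were seen, as were Csf3r and Mmp8. The values of 3 genes under this rule or beside it are not reported here. Alternatives covered background correction, scaling, filter, array weights, slide, a smooth muscle covariate, probes and leaving out each rat. Slides 1 to 4 held 2 rats of each diet, and slide 5 held rat 1 alone.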

Additional observations from a re-analysis of the deposited data

How the results depend on the processing

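Over 11 other settings and 17 fits without 1 rat, where each gene could be tested, Gpx1, Gpx2, Gpx3, Nqo1, Akr1b8 and Hmox1 kept a lower and Gclc a higher mean at high calcium. Reversed values were those of Gclm (-0.010 without background correction, -0.53 with processed signals, -0.13 with median centring, -0.16 from Cy5 alone), Gpx4 (-0.012 with array weights; -0.022 to 0.035 without 1 rat, lowest without rat 18) and Txnrd1 (-0.18 to 0.00045 without 1 rat, above 0 without rat 17). Gclm gave no value in the series matrix or under the filter on all 17 arrays. Probes past the adjusted threshold, 0 in limma (2381 at an unadjusted p under 0.05), were 13 with the smooth muscle covariate and 0 to 193 without 1 rat (193 without rat 3, 38 without rat 16). Members past it were 0 to 1 without 1 rat. Probes at an unadjusted p under 0.05 were 779 with median centring, 3787 with array weights and 1588 to 3081 without 1 rat. Members there were 1 with median centring and 2 to 5 without 1 rat (2 without rat 18). Pairs that passed numbered 29 with median centring, 3 with series matrix values, 6 with the slide as a block and 1 to 4 without 1 rat (4 without rat 4, 3 without rats 8 or 18). Relations to marker lists numbered 41 with median centring, and 0 to 6 without 1 rat (0 without rat 3, 1 without rat 15, 3 without rats 2, 9, 10, 13, 14 or 17). The cause of these moves was not tested. No paired analysis was possible because the diets share no replicate number. Of the members, Gpx3 and Gclm had the dimmest signals, and Gclm was well above background on 8 of 17 arrays.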
